A study of Sparus aurata with 9 samples.

Results

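Myoblasts of the gilthead sea bream, Sparus aurata, that received amino acids (AA cells) were compared directly with myoblasts that received the hormone Igf-1, insulin-like growth factor 1. The comparison was made between 3 AA libraries and 3 Igf-1 libraries, which are 6 of the 9 poly(A) RNA libraries of the study. All genes of the count table entered it, and 17687 of 27159 had enough counts to be tested. The cells were primary cultures from fast-twitch muscle, kept in growth medium until the first fusion of myoblasts. AA cells spent 12 h in a restriction medium of balanced salts, glucose and vitamins without amino acids, followed by 24 h in DMEM. Igf-1 cells had the same 12 h of restriction and then 24 h in the restriction medium with recombinant sea bream Igf-1 and serum albumin as its carrier. CTR cells stayed in the restriction medium for 36 h. DMEM differs from the restriction medium in more than its amino acids, so the comparison is between complete media. The study used 3 independent cultures, and the labels do not say which library came from which, so p-values measure only the spread between these libraries.

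Amino acids are both the building blocks of protein and a signal: they act at the lysosome surface through the Rag GTPases to switch on the mTOR kinase. Igf-1 is a hormone made in liver and muscle that binds a receptor tyrosine kinase and reaches mTOR through PI3-kinase and Akt. In fish muscle, which keeps adding fibres after hatching, both are known to promote myoblast proliferation, fusion and protein deposition.

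Total counts were 48725967 to 67149607 in AA libraries, 65652929 to 67887824 in Igf-1 libraries and 51598127 to 61499074 in CTR libraries. Values below are counts scaled to a common library size (normalized counts), except where FPKM, which also divides by gene length, is named. Low counts fell mostly on multiples of 4, so about 4 counts stood for 1 sequenced pair. The cells carried abundant muscle markers in all 6 libraries. Myog, a myogenic transcription factor, had a mean FPKM of 467 in AA cells and 356 in Igf-1 cells. Ckma, muscle creatine kinase, had 3085 in AA cells and 1990 in Igf-1 cells. Some other muscle markers were low: pax7b had 1.82 in AA cells and 2.15 in Igf-1 cells, and myf6 0.15 and 0.35. Fibroblast markers were abundant too: dcn had 450 in AA cells and 525 in Igf-1 cells, and col1a1a 686 and 521. Pairs of AA libraries differed by 0.831 to 1.09 on a root-mean-square log2 scale, pairs of Igf-1 libraries by 0.741 to 0.833, and an AA with an Igf-1 library by 0.931 to 1.15. The spread among AA libraries thus reached into the range of the difference between the groups, and AA 3 stood below AA 1 and AA 2 in genes of ribosomal proteins and oxidative phosphorylation. In proteasome genes AA 3 was lowest too, but AA 1 lay between AA 2 and AA 3. Their summed normalized counts were 438174 in AA 1, 526521 in AA 2 and 333589 in AA 3. CTR 3 stood above CTR 1 and CTR 2 in the genes of all 3 kinds. Its ribosomal protein genes summed to 19107200 normalized counts, against 11602300 in CTR 1 and 9857920 in CTR 2.

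AA cells had higher levels of genes of cell division, DNA replication, sarcomeres, cholesterol synthesis and the proteasome, and lower levels of genes of lysosomes and of pigment granules, than Igf-1 cells. In all, 430 genes (2.43% of those tested) were higher and 335 (1.89%) lower in AA cells, 4.33% together, that is, with an adjusted p no greater than 0.05 in edgeR's quasi-likelihood test with Benjamini-Hochberg adjustment and a log2 fold change past 1 in either direction. Without the fold threshold, 760 genes (4.3%) were higher and 720 (4.07%) lower, 8.37% in both directions together, and these calls are the ones counted per gene list below. The median log2 size among the genes past both thresholds was 1.59 for the higher and 1.31 for the lower ones. Over all genes tested the median log2 fold change was -0.03 and the middle 50% lay between -0.37 and 0.33. In each of the 430 and 335 genes the 3 AA libraries did not overlap the 3 Igf-1 libraries, a separation that 13.6% of all genes tested showed with AA higher and 16.7% with AA lower. Separate ranges given below, for genes that passed or did not, therefore describe the values and add no support. Tested on log2 FPKM with limma instead, 541 genes were higher and 272 lower. The counts moved with single libraries of all 3 groups. Without Igf-1 1 they were 278 higher and 284 lower, without Igf-1 2 273 and 216, and without Igf-1 3 256 and 181. Without AA 1 they were 334 and 222, and without CTR 3, which shares the fit, 554 and 327.

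**Figure D1:**
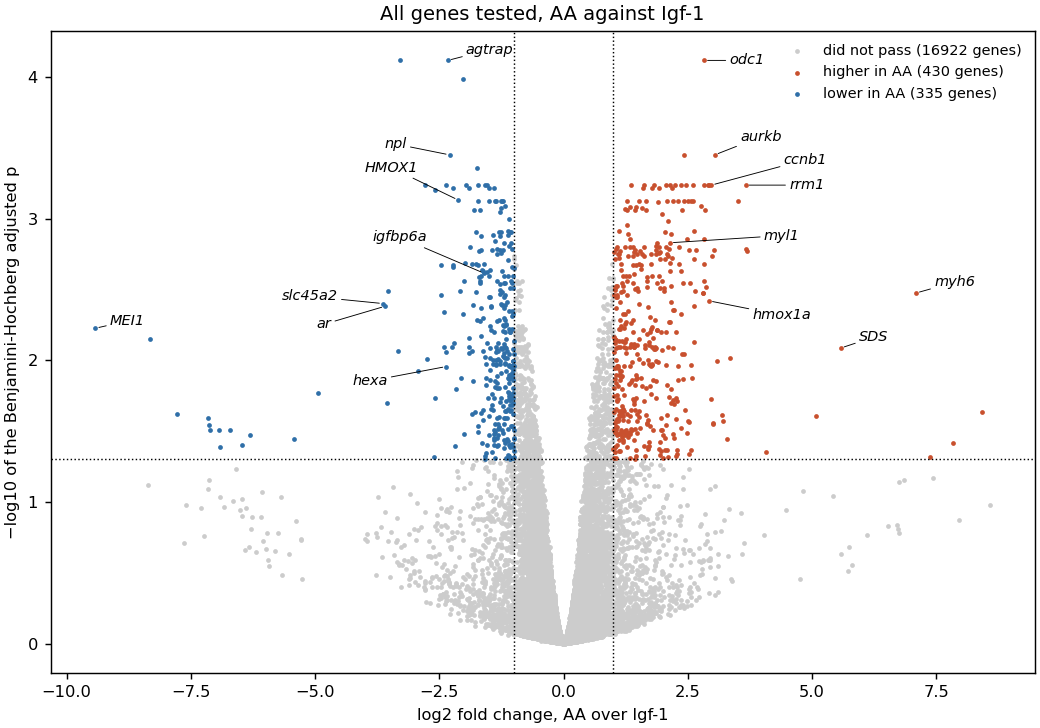
Each point is 1 of the 17687 genes tested, with the log2 fold change of AA over Igf-1 on the x axis and −log10 of the adjusted p on the y axis; coloured points are the 430 genes higher and the 335 lower in AA cells. The highest named points are odc1 on the right and agtrap on the left, both at an adjusted p of 7.62e-05 in edgeR's test.

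Both groups were also set against the shared CTR libraries, which places each difference relative to the starved cells. Against CTR, AA cells had 1319 genes higher (7.46%) and 1369 lower (7.74%) at the adjusted p alone, and Igf-1 cells had 26 higher (0.147%) and 24 lower (0.136%). Of the 430 genes higher in AA than in Igf-1 cells, the CTR mean was nearer the Igf-1 mean in 411, and of the 335 lower genes in 325. The CTR mean lay between the AA and Igf-1 means in 150 of the higher and 130 of the lower genes, and beyond the Igf-1 mean in the other 280 and 205. For no gene of either set did it lie beyond the AA mean. The CTR libraries are common to both contrasts, so these counts place the levels and are no independent evidence for the difference.

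Genes of mitosis and cytokinesis gave the clearest group difference. Of 51 members tested, 41 were higher in AA cells and none lower, and the fold change was above 0 in all 51, with a median log2 fold change of 2.14. Their medians against CTR were 2.67 in AA cells and 0.34 in Igf-1 cells. The summed counts of the list were 53902, 57760 and 45330 in AA libraries, against 19553, 21058 and 21787 in Igf-1 libraries. Between 31 and 44 members were higher under each of 16 other settings of the analysis.

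Cyclin B1 (ccnb1, ENSSAUG00010021457), which activates Cdk1 at entry into mitosis, had 2627, 2392 and 1871 normalized counts in AA cells and 267, 263 and 347 in Igf-1 cells, with 172, 105 and 206 in CTR cells. Its log2 fold change was 2.97 (SE 0.27, adjusted p = 0.000579 in edgeR's quasi-likelihood test). Each AA library was above every Igf-1 library, and Igf-1 and CTR ranges were close to each other without overlapping. Aurora kinase B (aurkb, ENSSAUG00010026190), which corrects the attachment of chromosomes to the spindle, had 654, 753 and 601 in AA cells, 82.9, 89.1 and 71.3 in Igf-1 cells and 61.7, 79.3 and 59.2 in CTR cells. Its partner in the same complex, survivin (birc5a), had 527, 371 and 204 in AA cells and 48.9, 51.0 and 34.7 in Igf-1 cells. Here AA 3 was the lowest AA library, still well above the Igf-1 range. Polo-like kinase 1 (PLK1), another kinase of mitosis, had 1261, 1329 and 1106 in AA cells and 221, 145 and 154 in Igf-1 cells, and the kinesin kif20a, which works in cytokinesis, had 1279, 1590 and 1310 in AA cells and 320, 294 and 272 in Igf-1 cells. The condensin subunit ncapd2, which compacts chromosomes, had 2166, 2150 and 1921 in AA cells and 435, 423 and 347 in Igf-1 cells. The groups did not overlap in these 3 genes, which held for every gene past both thresholds. The ubiquitin-conjugating enzyme ube2c and the condensin subunit smc4 were among the 10 members that did not pass.

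The DNA replication list had 25 of 51 members higher and none lower, at a median log2 fold change of 1.06. The count was 13 without Igf-1 2, 14 without Igf-1 1, 15 without Igf-1 3 and 16 without AA 1, while the list's median stayed between 0.98 and 1.17 under the alternatives tried. The replicative helicase subunit mcm2 (ENSSAUG00010015440) had 2864, 2957 and 2431 in AA cells, 955, 1068 and 1100 in Igf-1 cells and 606, 597 and 839 in CTR cells (log2 fold change 1.40, SE 0.17, adjusted p = 0.00159 in edgeR's quasi-likelihood test). Mcm3, mcm4, mcm5, mcm6 and mcm7 of the same ring were higher as well, by 0.76 to 1.45 on the log2 scale. Rpa1, the large subunit of the protein that coats single-stranded DNA, had 1688, 1489 and 1603 in AA cells and 430, 493 and 383 in Igf-1 cells. For both mcm2 and rpa1 the Igf-1 range lay above the CTR range and far below the AA range.

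The enzymes that supply deoxynucleotides were the next group. Ribonucleotide reductase subunit rrm1 (ENSSAUG00010013817) had 860, 778 and 798 in AA cells and 65.5, 78.8 and 47.2 in Igf-1 cells, with 85.4, 40.7 and 43.3 in CTR cells (log2 fold change 3.67, SE 0.34, adjusted p = 0.000579 in edgeR's quasi-likelihood test). Its partner subunit RRM2 (ENSSAUG00010003210) had 1828, 2082 and 1218 in AA cells and 362, 317 and 437 in Igf-1 cells, and a second gene with the symbol RRM2 was higher by 2.03 on the log2 scale. The Igf-1 values of rrm1 lay within the CTR range, and those of RRM2 above it. Among the salvage kinases, tk1 was higher by 2.64 and dck by 2.46. In total 8 of 30 genes of nucleotide synthesis and one-carbon metabolism were higher and none lower, with a list median of 0.34. Of 36 genes of G1 cyclins, E2f factors and their brakes, 8 were higher and none lower, a count of 5 without AA 2 or Igf-1 3 and of 4 without Igf-1 2. Cyclin A2 (ccna2) had 1298, 1659 and 1147 in AA cells and 176, 167 and 230 in Igf-1 cells, and cyclin E2 (CCNE2) had 93.9, 131 and 66.0 in AA cells and 13.1, 13.9 and 3.85 in Igf-1 cells. CCNE2 lost its call without AA 1, AA 2 or any 1 Igf-1 library. The Cdk inhibitor cdkn1a had 1948, 1037 and 1160 in AA cells and 3356, 2661 and 2278 in Igf-1 cells and did not pass (adjusted p = 0.059 in edgeR's quasi-likelihood test). Its groups did not overlap, a separation that 16.7% of all genes tested showed with AA lower.

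**Figure D2:**
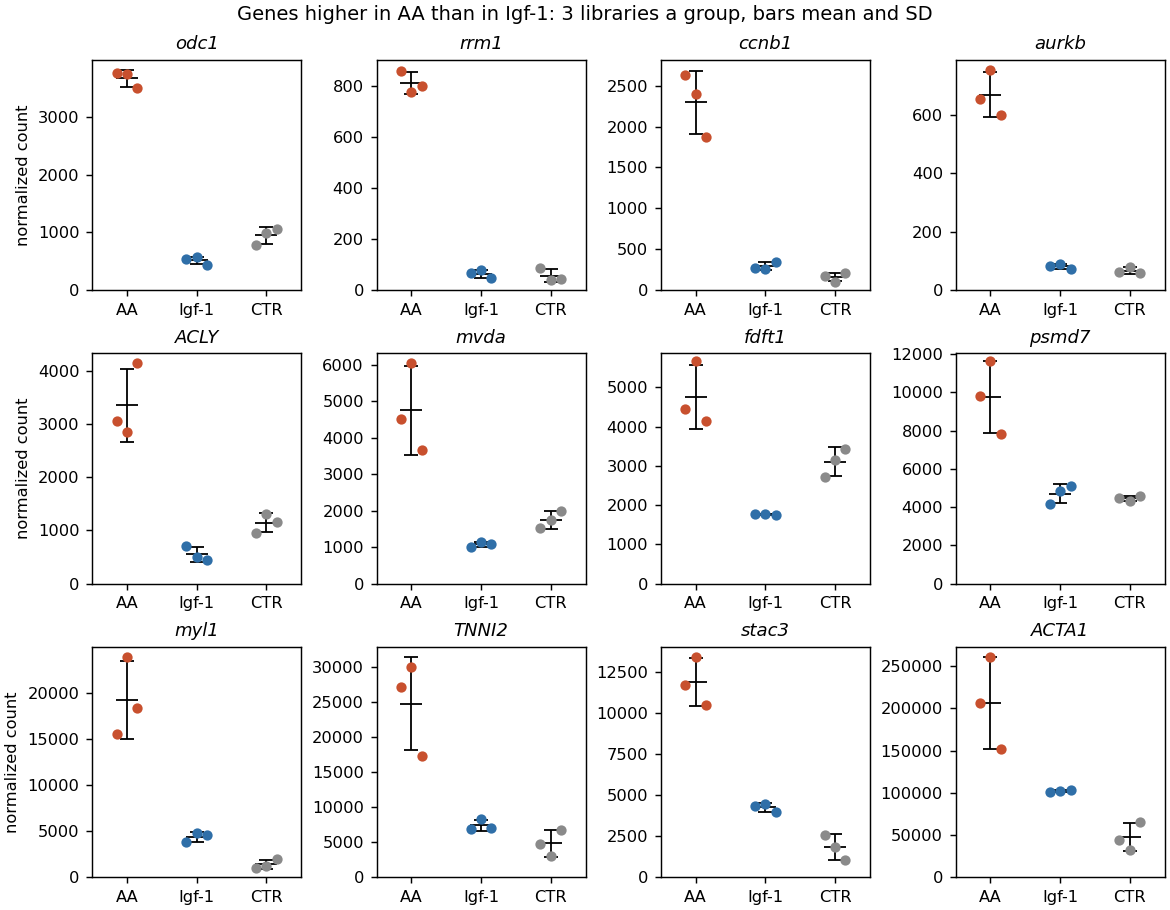
Normalized counts per library (y axes, each starting at 0) of genes higher in AA cells, with AA, Igf-1 and CTR libraries from left to right in each panel and bars for mean and SD. In ccnb1 the 3 AA points lie at 1871 to 2627 and the 3 Igf-1 points at 263 to 347.

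Some further genes of division, DNA repair and chromatin were picked after their values were seen, so they carry no weight for the lists. The importin kpna2 (ENSSAUG00010003066) had 3903, 4162 and 2734 in AA cells and 466, 481 and 470 in Igf-1 cells, while its copy KPNA2 (ENSSAUG00010002267) had 2869, 3250 and 2344 in AA cells and 1410, 1827 and 1824 in Igf-1 cells and did not pass. Among DNA repair genes, fanci, of the crosslink repair pathway, was higher by 2.36 and the checkpoint mediator CLSPN by 1.98. Among genes of chromatin upkeep, the maintenance DNA methyltransferase dnmt1 had 1524, 1467 and 1505 in AA cells and 588, 770 and 719 in Igf-1 cells, and the Polycomb methyltransferase ezh2 had 860, 834 and 1076 in AA cells and 423, 520 and 408 in Igf-1 cells. Both had AA ranges clear of the Igf-1 range. The histone chaperones showed it in 1 copy each: 1 asf1bb gene was higher by 1.95 and the other had 0.20, and NASP was higher by 1.56 while nasp had 0.14.

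Ornithine decarboxylase (odc1, ENSSAUG00010003502), the rate-limiting enzyme of polyamine synthesis, was among the genes with the smallest adjusted p. It had 3763, 3753 and 3502 in AA cells, 541, 568 and 444 in Igf-1 cells and 783, 996 and 1067 in CTR cells, a log2 fold change of 2.83 (SE 0.17, adjusted p = 7.62e-05 in edgeR's quasi-likelihood test). All 3 Igf-1 libraries were below all 3 CTR libraries, which in turn were below all AA libraries.

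Sarcomere genes were higher in AA cells in all 3 structural lists. Of the thick filament and M band list 9 of 25 were higher and 1 lower, of the thin filament list 8 of 27 were higher, and of the Z disc and costamere list 13 of 38, with no member lower in the last 2 lists. The list medians were 0.66, 0.71 and 0.61 for AA over Igf-1. Against CTR, 14 thick filament, 17 thin filament and 20 Z disc genes were higher in AA cells, and 1, 1 and 2 in Igf-1 cells. Of all genes tested, 7.46% were higher than in CTR cells in AA cells and 0.147% in Igf-1 cells. The medians against CTR were 1.06, 1.14 and 0.85 in AA cells. In Igf-1 cells they were also above 0, at 0.42, 0.46 and 0.41. The counts for AA over Igf-1 moved with the library set. The thick filament count was 5 without Igf-1 1 and 4 without Igf-1 2 or Igf-1 3. The thin filament count was 2 without Igf-1 1 or Igf-1 2, 3 without AA 1 or Igf-1 3, 4 without AA 2 and 13 without CTR 3. The Z disc count was 8 without AA 3, 7 without Igf-1 1 or Igf-1 2 and 5 without Igf-1 3. The 3 medians of AA over Igf-1 stayed between 0.48 and 0.82 over the alternatives tried.

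Myosin light chain 1 (myl1, ENSSAUG00010015082), of the fast fibre myosin, had 15501, 23841 and 18331 in AA cells, 3788, 4797 and 4508 in Igf-1 cells and 999, 1162 and 1935 in CTR cells. Its log2 fold change was 2.14 (SE 0.26, adjusted p = 0.00148 in edgeR's quasi-likelihood test), and the 3 groups stood in 3 ranges that did not overlap. Fast troponin I (TNNI2), the inhibitory subunit of the calcium switch, had 27167, 29989 and 17259 in AA cells, 6796, 8304 and 7025 in Igf-1 cells and 4648, 2982 and 6738 in CTR cells. Titin cap (tcap), which ties titin to the Z disc, had 4042, 3862 and 3357 in AA cells and 1195, 1261 and 1292 in Igf-1 cells. For both genes the Igf-1 libraries lay below the AA libraries. One gene described as cardiac alpha actin (ACTA1, ENSSAUG00010015572) had 206187, 261454 and 151629 in AA cells and 101379, 102146 and 102919 in Igf-1 cells, a log2 fold change of 1.01 (SE 0.28, adjusted p = 0.049 in the same test) that lost its call in 7 of 16 other settings. The other gene with the symbol ACTA1 (ENSSAUG00010001996) had 1887, 2267 and 1155 in AA cells and 1665, 1684 and 2063 in Igf-1 cells, which overlap. Reads of such near-identical copies may have been shared between them.

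The myosin heavy chain gene myh6 (ENSSAUG00010003215) was close to absent without amino acids: it had 188, 179 and 180 in AA cells, 3.49, 0 and 0 in Igf-1 cells and 0 in each CTR library. The Igf-1 value was that of about 1 sequenced pair, and the ratio of AA to Igf-1 rates was 148 with a counting interval of 26.1 to 5888. All 3 AA libraries carried it at a like level. Other sarcomere genes chosen after their values were seen included tnnt2c, a troponin T, with 18241, 20151 and 15824 in AA cells and 5531, 6490 and 5678 in Igf-1 cells. The caveolae coat genes cavin4a and cavin4b were higher by 1.41 and 1.37, and rrad, a small GTPase that restrains calcium channels, by 2.90.

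Of 31 genes of excitation-contraction coupling, 8 were higher and 1 (SCN4A, the muscle sodium channel, at -1.02) lower. The higher count was 5 without AA 1 or AA 3, 4 without Igf-1 1 or Igf-1 2 and 3 without Igf-1 3, and SCN4A lost its call without AA 1, AA 2, CTR 1, CTR 2 or any 1 Igf-1 library. Calsequestrin 2 (casq2), the calcium store of the sarcoplasmic reticulum, had 2120, 1609 and 2048 in AA cells, 460, 411 and 540 in Igf-1 cells and 307, 237 and 433 in CTR cells. The adaptor stac3 (ENSSAUG00010009971), which links the voltage sensor to its calcium release channel, had 11748, 13441 and 10519 in AA cells, 4343, 4428 and 3962 in Igf-1 cells and 2584, 1843 and 1037 in CTR cells (log2 fold change 1.49, SE 0.27, adjusted p = 0.009 in edgeR's quasi-likelihood test). Its copy STAC3 (ENSSAUG00010022700) had 2082, 2161 and 1828 in AA cells and 1446, 1870 and 1924 in Igf-1 cells and did not pass. The stac3 ranges were apart in all 3 groups, whereas those of STAC3 overlapped between AA and Igf-1, and stac3 lost its call without Igf-1 3.

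The master regulators of myogenesis stood closer together. Of 46 myogenic regulators and fusion genes 6 were higher and 1 lower, at a median of 0.10. The higher count was 3 without AA 1, AA 2, Igf-1 2 or CTR 2, 2 without Igf-1 1, 1 without Igf-1 3 and 11 without CTR 3. The transcription factor myod1 (ENSSAUG00010004893) had 5943, 6262 and 5456 in AA cells and 4468, 4262 and 4394 in Igf-1 cells (log2 fold change 0.43, adjusted p = 0.065 in edgeR's quasi-likelihood test), and mymk, a fusion protein of the myoblast membrane, had 15308, 21322 and 14608 in AA cells and 14587, 17479 and 18668 in Igf-1 cells. The mymk ranges overlapped. Those of myod1, which missed the threshold, did not, a separation that 13.6% of all genes tested showed with AA higher. Those that passed included mustn1b at 1.48, smyd2a at 0.82 and CAV3 at 0.66, with vgll2a lower at -0.90.

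Cholesterol synthesis was the metabolic pathway with the largest share of members higher in AA cells. Of 29 members tested, 17 were higher and none lower, with a median log2 fold change of 1.04. Against CTR the list's medians were 0.56 in AA cells and -0.70 in Igf-1 cells, with 9 members higher and 1 lower in AA cells and none passing in either direction in Igf-1 cells. Between 12 and 20 members were higher under the alternatives tried.

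The genes ran through the whole pathway. Hmgcs1, which acts early in the pathway, had 7860, 7081 and 9163 in AA cells, 2919, 2071 and 1957 in Igf-1 cells and 3502, 4785 and 1429 in CTR cells. Mevalonate diphosphate decarboxylase (mvda, ENSSAUG00010008276) had 4508, 6054 and 3670 in AA cells, 1006, 1138 and 1081 in Igf-1 cells and 1515, 1736 and 1995 in CTR cells, a log2 fold change of 2.14 (SE 0.20, adjusted p = 0.000579 in edgeR's quasi-likelihood test). In mvda every Igf-1 library was below every CTR library and every AA library above them, whereas the CTR libraries of hmgcs1 spread across the Igf-1 range. Squalene synthase (fdft1), the first step given over to sterols, had 4445, 5669 and 4152 in AA cells, 1773, 1775 and 1741 in Igf-1 cells and 2714, 3160 and 3440 in CTR cells. Lanosterol synthase (lss), which closes the sterol rings, had 9406, 16485 and 7853 in AA cells and 1527, 1991 and 2346 in Igf-1 cells, and nsdhl, of the later demethylation steps, had 7410, 10115 and 6649 in AA cells, 2024, 2189 and 2229 in Igf-1 cells and 3376, 3811 and 5102 in CTR cells. The order of AA above CTR above Igf-1 held without overlap for fdft1, lss and nsdhl alike.

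Some members that regulate sterol synthesis did not pass. Insig1, which holds back the SREBP factors, had 1260, 676 and 1747 in AA cells and 739, 581 and 465 in Igf-1 cells (log2 fold change 1.04, adjusted p = 0.134 in edgeR's quasi-likelihood test). AA 2 lay inside the Igf-1 range of insig1.

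In fatty acid synthesis 5 of 25 genes were higher and none lower, and 3 were higher without AA 3, Igf-1 2 or Igf-1 3. ATP citrate lyase, which makes cytosolic acetyl-CoA, was higher in both copies: ACLY (ENSSAUG00010021668) had 3058, 2861 and 4147 in AA cells, 712, 493 and 438 in Igf-1 cells and 958, 1313 and 1156 in CTR cells, and ACLY (ENSSAUG00010023332) had 20723, 22498 and 23080 in AA cells and 11314, 11148 and 11678 in Igf-1 cells. Fatty acid synthase (fasn) had 8928, 4628 and 12992 in AA cells and 4289, 2989 and 2652 in Igf-1 cells. The fasn groups did not overlap, but its AA libraries spread far more than those of either ACLY gene. Endothelial lipase (lipg) had 16975, 17737 and 15815 in AA cells, 5743, 5698 and 5102 in Igf-1 cells and 9425, 9921 and 11869 in CTR cells. The desaturase SCD1a, chosen after its values were seen, had 24919, 25141 and 35113 in AA cells and 10275, 9101 and 9178 in Igf-1 cells, and the cholesterol exporter ABCA1 was lower by -1.07 on the log2 scale. In fatty acid uptake and oxidation 1 of 40 genes was higher and 3 were lower, with 0 lower without AA 1, Igf-1 2 or Igf-1 3 and 1 without AA 3. The mitochondrial carnitine transferase cpt1b, which lost its call in those 4 cases, had 67.6, 137 and 67.5 in AA cells, 232, 222 and 285 in Igf-1 cells and 531, 531 and 667 in CTR cells. For cpt1b the 3 groups did not overlap.

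**Figure D3:**
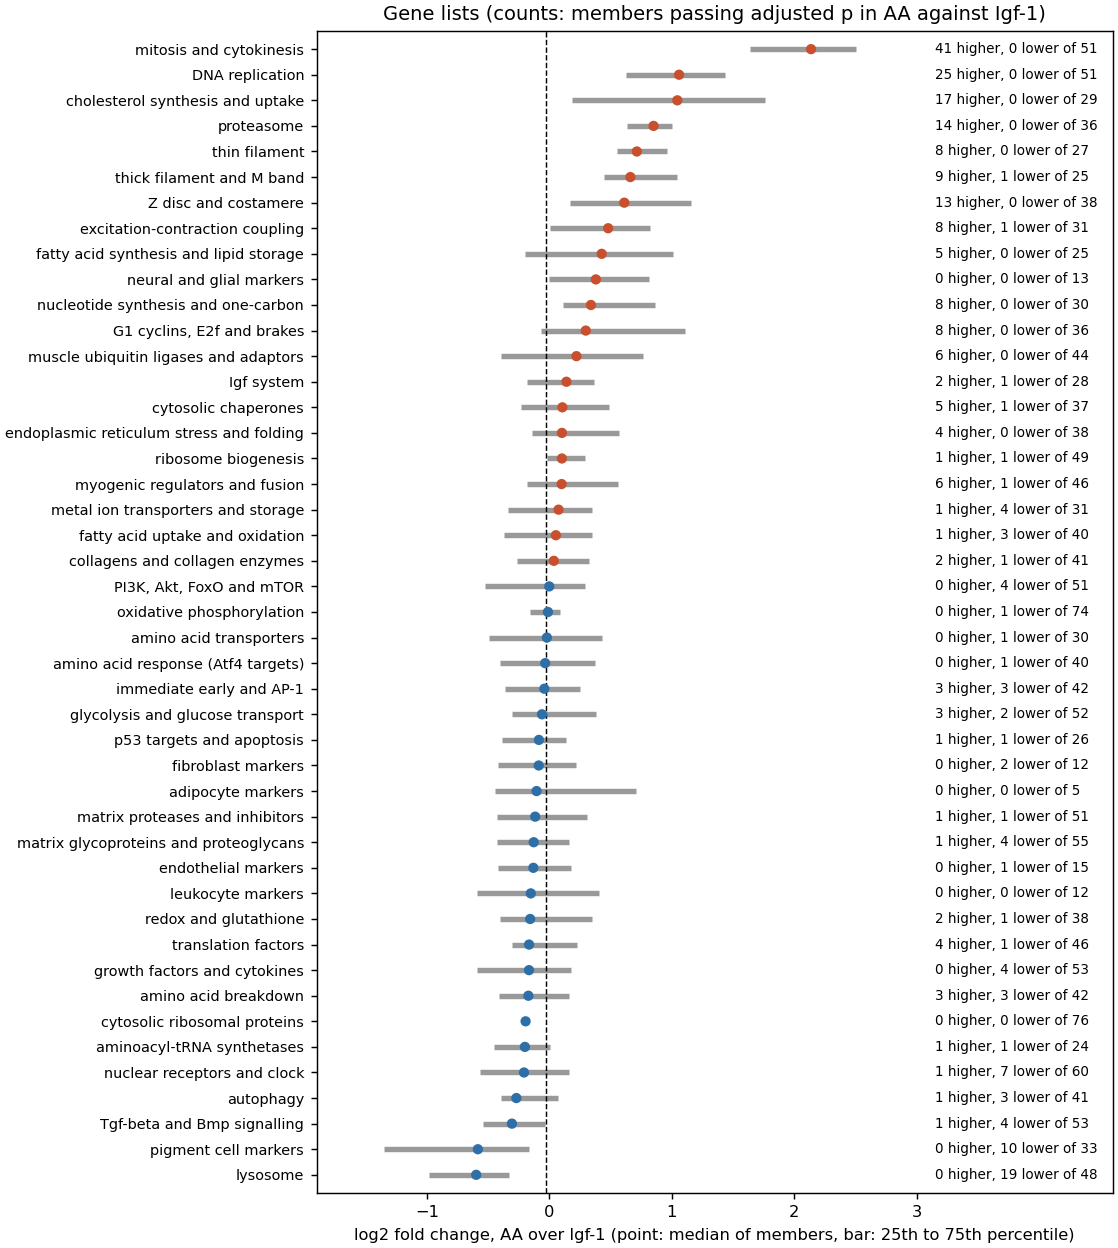
Gene lists by their median log2 fold change of AA over Igf-1 (x axis), with the middle 50% of members as bars and the numbers of members higher and lower at the right. The dashed line is the median of all genes (-0.03). Mitosis (2.14), DNA replication (1.06) and cholesterol synthesis (1.04) lie furthest to the right and the lysosome (-0.60) and pigment lists (-0.58) furthest to the left.

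Genes that answer to amino acid shortage differed little between AA and Igf-1 cells. Of 40 targets of Atf4, the transcription factor of the amino acid response, none was higher and 1 lower, at a median of -0.03. That gene, the pseudokinase trib3, had 2977, 3828 and 3063 in AA cells, 4849, 5939 and 7590 in Igf-1 cells and 7000, 8766 and 11466 in CTR cells, and it lost its call without AA 1, AA 3, Igf-1 2 or Igf-1 3. Asparagine synthetase (asns), a target used as a marker of this response in mammals, had 14082, 17990 and 15053 in AA cells, 15630, 18047 and 22753 in Igf-1 cells and 14631, 18200 and 21635 in CTR cells. The 3 groups overlapped in asns, whereas AA and Igf-1 did not overlap in trib3. Against CTR 1 Atf4 target was higher and 11 lower in AA cells, and none passed in Igf-1 cells. Of all genes tested, 7.74% were lower than in CTR cells in AA cells and 0.136% in Igf-1 cells. The list's medians against CTR were alike, at -0.20 in AA cells and -0.21 in Igf-1 cells.

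Of 42 genes of amino acid breakdown, 3 were higher and 3 lower. The higher count was 1 without Igf-1 1 or Igf-1 2 and 6 without CTR 3, and the lower count 1 without AA 1, Igf-1 2 or Igf-1 3, where prodhb lost its call. Serine dehydratase (SDS, ENSSAUG00010024300), which turns serine into pyruvate, had 163, 391 and 178 in AA cells, 0, 7.42 and 7.71 in Igf-1 cells and 0 in all CTR libraries. Phenylalanine hydroxylase (pah), which starts the breakdown of phenylalanine, had 452, 885 and 531 in AA cells, 1953, 2335 and 3073 in Igf-1 cells and 1259, 1345 and 1480 in CTR cells. The groups did not overlap in either gene, and pah in Igf-1 cells lay above the CTR range. The mitochondrial proline oxidase prodhb had 253, 268 and 223 in AA cells, 416, 616 and 639 in Igf-1 cells and 911, 1340 and 1208 in CTR cells. None of 30 amino acid transporters was higher and 1 was lower: slc6a14, a broad neutral and cationic carrier, had 1392, 895 and 988 in AA cells and 2834, 2723 and 2182 in Igf-1 cells. The Igf-1 range of slc6a14 lay wholly above the AA range. Of 313 genes of the whole slc family of carriers, 11 were higher and 34 lower, at a median of -0.05. The lower share was above the 4.07% of all genes tested, and the higher share below the 4.3%. The dependence of these counts on single libraries was not determined.

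The machinery of translation showed small differences. No gene of 76 cytosolic ribosomal proteins passed, and the list's median was -0.19, with 73 members below 0. The summed counts were 12202900, 13405800 and 6982780 in AA libraries and 10977900, 13147700 and 13275100 in Igf-1 libraries, so AA 3 was low, and the median was 0.05 without AA 3 and -0.37 without AA 2. Of 46 translation factors 4 were higher and 1 lower (higher without 1 AA library 2, without 1 Igf-1 library 1): the cap-binding protein eif4eb had 2399, 2869 and 1782 in AA cells and 1013, 1134 and 1151 in Igf-1 cells, and eef2b, an elongation factor 2 copy, had 631, 742 and 513 in AA cells and 1352, 1348 and 1788 in Igf-1 cells. Among 24 tRNA synthetases 1 was higher (tars1) and 1 lower, at a list median of -0.20, and neither call was kept without any 1 of the Igf-1 libraries. Among 49 genes of ribosome biogenesis 1 was higher (nolc1) and 1 lower (ddx21). Ddx21, a helicase of the nucleolus, had 67286, 69299 and 68971 in AA cells and 118653, 120464 and 126256 in Igf-1 cells. The groups did not overlap in it, and eif4eb kept its adjusted p but fell short of the fold threshold without AA 2 (0.93).

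Subunits of the proteasome were higher in AA cells in 14 of 36 cases and lower in none, with 35 of 36 fold changes above 0 and a median of 0.85. The lid subunit psmd11b (ENSSAUG00010021008) had 3881, 3986 and 4434 in AA cells, 2021, 1955 and 1864 in Igf-1 cells and 2218, 2628 and 2675 in CTR cells (log2 fold change 1.07, SE 0.13, adjusted p = 0.00159 in edgeR's quasi-likelihood test). The core subunit psma2 had 12160, 13373 and 11984 in AA cells and 6062, 5987 and 6400 in Igf-1 cells. Psmb3, also of the core, had 11370, 13561 and 7217 in AA cells and 3985, 5057 and 5228 in Igf-1 cells. The AA libraries lay above the Igf-1 libraries in these 3 genes, AA 3 was low in psmb3, and psma2 kept its adjusted p but fell short of the fold threshold without AA 2 (0.97). The list's summed counts were 438174, 526521 and 333589 in AA cells, 212254, 251565 and 276757 in Igf-1 cells and 218233, 214452 and 329042 in CTR cells, so AA 3 was near the highest CTR library. The number of members higher was 22 without AA 3, 4 without Igf-1 1 or Igf-1 2, 5 without Igf-1 3, 6 without AA 2, 7 without AA 1 and 23 without CTR 3, while the median stayed between 0.65 and 0.99.

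Of 44 muscle ubiquitin ligases and adaptors 6 were higher and none lower, and 3 were higher without any 1 of the Igf-1 libraries. The deubiquitinase usp28 had 3151, 3562 and 4764 in AA cells, 1656, 1545 and 1429 in Igf-1 cells and 450, 341 and 380 in CTR cells. Trim63a, the ligase MuRF1 that marks sarcomere proteins for breakdown in mammals, had 2674, 4378 and 2954 in AA cells, 1401, 2083 and 2124 in Igf-1 cells and 917, 823 and 1393 in CTR cells, and did not pass (adjusted p = 0.084 in edgeR's quasi-likelihood test). Usp28 formed 3 separate ranges, and the AA and Igf-1 ranges of trim63a were separate too. Of 41 autophagy genes 1 was higher, the starting kinase ulk1a at 0.82, and 3 were lower, ATG4D at -0.97, ATG14 at -0.76 and atg4c at -0.60. Without any 1 of the Igf-1 libraries none was higher, and without AA 1, Igf-1 2 or Igf-1 3 none was lower.

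**Figure D4:**
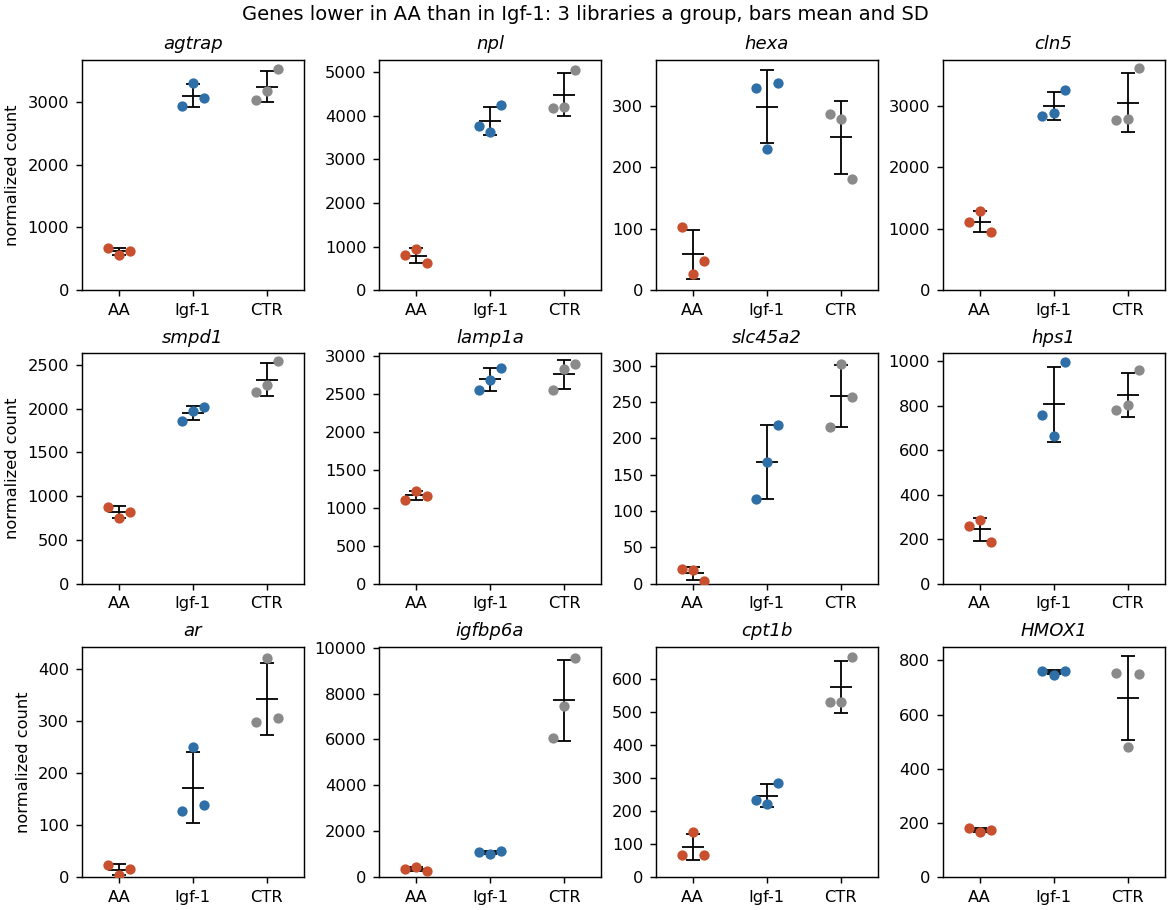
Normalized counts per library (y axes, each starting at 0) of genes lower in AA cells, with AA, Igf-1 and CTR libraries from left to right in each panel and bars for mean and SD. In agtrap the AA points lie at 558 to 670 and the Igf-1 points at 2925 to 3301, close to the CTR points.

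The lysosome list had the most members lower in AA cells. Of 48 tested, 19 were lower and none higher, 45 fold changes were below 0, and the median was -0.60. Against CTR the medians were -0.74 in AA cells, with 26 members lower, and -0.11 in Igf-1 cells. The summed counts were 455220 to 636710 in AA libraries and 832567 to 882390 in Igf-1 libraries, with no overlap. Leaving out Igf-1 3 gave 12 lower members, and the median kept between -0.66 and -0.54.

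The lysosome membrane protein lamp1a (ENSSAUG00010000472) had 1105, 1222 and 1152 in AA cells, 2542, 2684 and 2839 in Igf-1 cells and 2542, 2817 and 2893 in CTR cells, a log2 fold change of -1.21 (SE 0.13, adjusted p = 0.000755 in edgeR's quasi-likelihood test). Acid sphingomyelinase (smpd1), which splits sphingomyelin, had 881, 746 and 821 in AA cells, 1865, 1973 and 2019 in Igf-1 cells and 2190, 2269 and 2542 in CTR cells. Igf-1 and CTR cells shared their lamp1a range, and AA cells stood apart from both in the 2 genes. Both chains of beta-hexosaminidase, which trims gangliosides, were lower: hexb had 17754, 19658 and 12217 in AA cells and 34127, 36091 and 41307 in Igf-1 cells, and hexa had 103, 25.9 and 47.0 in AA cells and 328, 230 and 336 in Igf-1 cells. The protease cathepsin B (CTSB) had 8777, 8876 and 7971 in AA cells and 17592, 17030 and 17157 in Igf-1 cells. No AA library of these genes reached the Igf-1 range, although hexa lost its call without Igf-1 3. The calcium channel mcoln1b and the proton pump subunit ATP6V1A were lower by -1.09 and -1.01.

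A further 16 lysosome-related genes, chosen after their values were seen, were all lower, the most by -2.29 (npl) on the log2 scale. Npl, which splits sialic acid, had 811, 944 and 617 in AA cells, 3755, 3620 and 4245 in Igf-1 cells and 4178, 4200 and 5049 in CTR cells, and the mannosidase man2b2 had 1010, 1171 and 908 in AA cells and 3450, 3522 and 4546 in Igf-1 cells. Ctns, the cystine exporter, and slc17a5, the sialic acid exporter, were lower by -1.17 and -1.12. Another 10 genes, which share vps41 and vps33a with those 16, belong to complexes that build lysosomes and lysosome-related organelles and were lower by -1.09 to -1.73, among them bloc1s1, bloc1s3 and hps5. Hps5 had 1872, 1926 and 1745 in AA cells, 4594, 4863 and 6160 in Igf-1 cells and 5314, 6510 and 6285 in CTR cells. Since these 16 and 10 genes were picked for their change, their counts carry no test.

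Of 33 pigment cell markers, 10 were lower and none higher, at a median of -0.58, and several encode the same organelle complexes. The summed counts of the list were 14782, 14149 and 15321 in AA libraries, 21565, 21808 and 24999 in Igf-1 libraries and 23382 to 24766 in CTR libraries. Dct, an enzyme of melanin synthesis, had 0 in all 3 AA libraries, 59.4, 25.05 and 35.7 in Igf-1 cells and 11.4, 25.3 and 36.1 in CTR cells, which is at least 10.4-fold lower in AA cells at a floor of 12 counts over the group, with 7.996 as the lower end of the counting interval of the ratio. The melanosome carriers slc45a2 and slc24a5 (ENSSAUG00010022209) had 20.02, 18.6 and 3.03 and 23.8, 22.8 and 13.7 in AA cells, against 117, 168 and 219 and 62.0, 130 and 124 in Igf-1 cells. The mean FPKM of dct was 0 in AA cells and 0.265 in Igf-1 cells and that of tyrosinase (TYR) 3.53 in AA cells and 5.58 in Igf-1 cells, far under myog and ckma. TYR, a second tyrosinase gene (tyr) and the lineage factors mitfa and sox10 did not pass. The counts of markers lower were 9 or 10 whichever library was left out. In bulk libraries fewer cells of a type and less RNA per cell cannot be told apart, and the part of pigment cells in these differences was not tested.

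**Figure D5:**
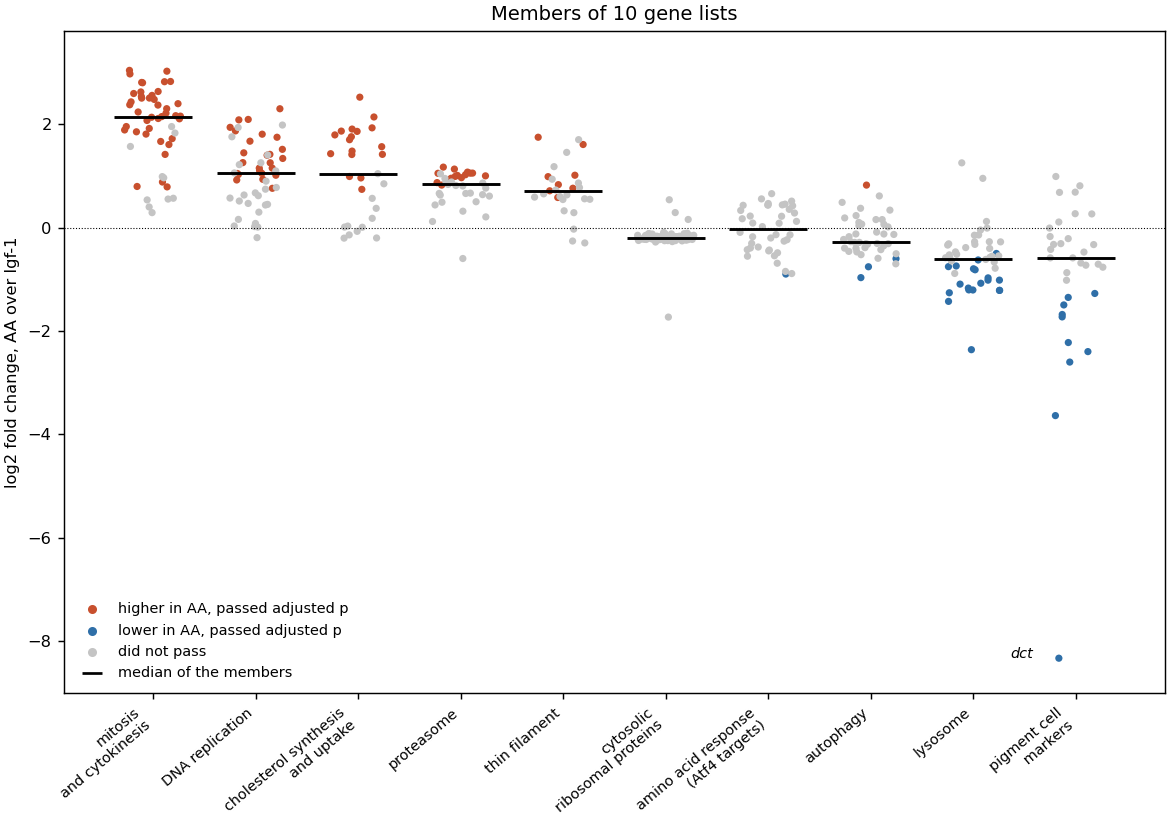
The log2 fold change of AA over Igf-1 (y axis) of each member of 10 lists (x axis), coloured where it passed the adjusted p, with the list median as a bar. All 51 mitosis members lie above 0 with a median of 2.14 and most lysosome members below it with a median of -0.60; the fitted value of dct depends on its 0 counts in AA cells and is no bound.

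Genes of growth signalling had few calls in number. Of 51 genes of PI3-kinase, Akt and mTOR signalling none was higher and 4 were lower, with a list median of 0.00. The lower share was 7.84%, against 4.07% of all genes tested. The lower count was 2 without Igf-1 1, 1 without AA 1, Igf-1 2 or Igf-1 3 and 8 without CTR 3. Tsc2, the GTPase activator that keeps mTOR off, had 3760, 4092 and 3992 in AA cells, 6998, 6744 and 8003 in Igf-1 cells and 6777, 6773 and 7509 in CTR cells. The Rag GTPase RRAGC had 527, 532 and 634 in AA cells and 1016, 1049 and 1028 in Igf-1 cells, its copy rragcb was lower by -0.84, and lamtor2, part of the Ragulator that anchors the Rags to the lysosome, by -0.89. AA libraries were below Igf-1 and CTR libraries in tsc2, and Igf-1 overlapped CTR.

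In the Igf system itself 2 of 28 genes were higher and 1 lower. The binding protein igfbp6a (ENSSAUG00010024298) had 342, 452 and 265 in AA cells, 1068, 1021 and 1113 in Igf-1 cells and 6073, 7467 and 9578 in CTR cells (log2 fold change -1.60, SE 0.22, adjusted p = 0.00243 in edgeR's quasi-likelihood test). It was lower than in CTR cells under both treatments, with 3 ranges that did not overlap. Igfbp2a had 208, 154 and 177 in AA cells and 69.0, 77.0 and 28.9 in Igf-1 cells but lost its call in 8 of 16 other settings. GRB14, an adaptor that dampens insulin receptor signalling in mammals, had 939, 948 and 1267 in AA cells, 438, 436 and 407 in Igf-1 cells and 468, 357 and 331 in CTR cells.

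A gene without a symbol, ENSSAUG00010004399, is described as E3 ubiquitin-protein ligase NEURL3-like. It followed the same order as igfbp6a with a larger difference: 397, 503 and 349 in AA cells, 3477, 4278 and 4408 in Igf-1 cells and 9618, 12131 and 13659 in CTR cells. Edn1, the peptide endothelin, had 56.3, 71.4 and 25.8 in AA cells, 149, 116 and 135 in Igf-1 cells and 701, 894 and 933 in CTR cells, and plvapb, an endothelial membrane protein, had 285, 365 and 280 in AA cells, 703, 811 and 1178 in Igf-1 cells and 2706, 3915 and 5166 in CTR cells. Edn1 lost its call without AA 1, CTR 2 or any 1 Igf-1 library. Each of the 3 genes had separate ranges in the 3 groups, with Igf-1 between AA and CTR. Usp28, stac3 and myl1 had the opposite order, with CTR lowest. Other endothelial markers gave no call, and the leukocyte list of 12 genes had none in either direction.

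Single genes of other kinds differed as well. Agtrap (ENSSAUG00010004444), which binds the angiotensin receptor in mammals, had 670, 558 and 623 in AA cells, 2925, 3301 and 3066 in Igf-1 cells and 3032, 3163 and 3514 in CTR cells (log2 fold change -2.33, SE 0.14, adjusted p = 7.62e-05 in edgeR's quasi-likelihood test). The ubiquitin ligase lnx1 had 825, 822 and 738 in AA cells, 3207, 3250 and 3250 in Igf-1 cells and 3154, 2981 and 3556 in CTR cells. In both, Igf-1 and CTR cells overlapped and AA cells stood far below. MEI1, a meiosis gene in mammals, had 0 in every AA library and 62.9, 91.8 and 102 in Igf-1 cells, at least 21.8-fold lower in AA cells at the floor of 12 counts, with 17.2 as the lower end of the counting interval. The Polycomb protein cbx7a had 1337, 1634 and 1455 in AA cells and 4546, 4041 and 4726 in Igf-1 cells, and the androgen receptor (ar) had 23.8, 3.10 and 15.9 in AA cells, 126, 250 and 139 in Igf-1 cells and 297, 421 and 305 in CTR cells.

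Among clock genes and nuclear receptors 1 of 60 was higher and 7 were lower, and 4 were lower without Igf-1 1 and 3 without Igf-1 2 or Igf-1 3. Their lower share was 11.7%, against 4.07% of all genes tested. In the lists that follow, the lower share was 7.55% for growth factors and 7.55% for Tgf-beta. It was 7.27% for matrix glycoproteins and 2.44% for collagens. The Rev-erb beta copies nr1d2b and nr1d2a, repressors of the clock, had 2270, 2082 and 2146 and 1258, 1033 and 925 in AA cells, against 3811, 3787 and 4075 and 2315, 1925 and 2164 in Igf-1 cells. Growth factors gave 4 of 53 lower and none higher, led by fgf18a with 407, 405 and 391 in AA cells, 1084, 904 and 788 in Igf-1 cells and 1739, 1469 and 1874 in CTR cells. The Tgf-beta list had 1 higher and 4 lower of 53: the activin antagonist fstl3 had 8617, 10577 and 9537 in AA cells and 4227, 4722 and 4307 in Igf-1 cells, and tgfb3 had 2294, 2549 and 2265 in AA cells and 3544, 3631 and 4441 in Igf-1 cells. The growth factor count was 2 without AA 3, Igf-1 1 or CTR 2 and 1 without Igf-1 2 or Igf-1 3. The lower Tgf-beta count was 0 without AA 1, AA 3, Igf-1 2 or Igf-1 3, 1 without AA 2, Igf-1 1 or CTR 1 and 2 without CTR 2. The groups were separate in fgf18a, fstl3 and tgfb3. Of the matrix lists, 2 of 41 collagens and their enzymes were higher and 1 lower (no higher call without Igf-1 1 and 5 without CTR 3, no lower call without AA 1 or any 1 Igf-1 library), and 1 of 55 matrix glycoproteins was higher and 4 lower (1 without AA 1, AA 2, Igf-1 1 or Igf-1 3, 2 without AA 3 or Igf-1 2), including the fibronectin gene fn1b with 185497, 155542 and 190205 in AA cells and 357072, 257828 and 328094 in Igf-1 cells. Of the abundant keratins, krt18b had a mean FPKM of 906 ± 88.9 in AA cells and 1989 ± 173 in Igf-1 cells (SD, n = 3 each).

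The remaining lists had few calls in number, but some shares lay above those of all genes tested (4.3% higher and 4.07% lower). Cytosolic chaperones had 13.5% higher and genes of endoplasmic reticulum folding and stress 10.5%. Metal ion carriers had 12.9% lower and fibroblast markers 16.7%. Oxidative phosphorylation had 0% higher and 1.35% lower. Of 74 genes of oxidative phosphorylation none was higher and 1 was lower, SDHB of succinate dehydrogenase, with 2323, 2245 and 1750 in AA cells, 3668, 4300 and 4576 in Igf-1 cells and 5000, 5644 and 6897 in CTR cells. The list's median was -0.01, with 0.21 without AA 3 and -0.25 without AA 2. Of 52 genes of glycolysis and glucose transport 3 were higher, among them the insulin-responsive glucose carrier SLC2A4 with 249, 345 and 344 in AA cells and 91.7, 152 and 98.3 in Igf-1 cells, and 2 were lower. The higher count was 0 without Igf-1 1, 1 without Igf-1 2 or Igf-1 3 and 5 without CTR 3, the lower count 1 without any 1 of AA 1, AA 3, CTR 2 and the Igf-1 libraries, and SLC2A4 lost its call without Igf-1 1 or Igf-1 3. Of 38 genes of folding and stress in the endoplasmic reticulum 4 were higher and none lower, with 10 higher without CTR 3 and 1 without any 1 of the Igf-1 libraries. The endoplasmic reticulum protein creld2 led them, with 1201, 1284 and 840 in AA cells and 287, 276 and 350 in Igf-1 cells. Cytosolic chaperones had 5 higher and 1 lower of 37 (2 higher without Igf-1 1 or Igf-1 2 and 1 without Igf-1 3), and redox genes 2 higher and 1 lower of 38. Metal ion carriers had 1 higher and 4 lower of 31 (2 lower without any 1 AA or Igf-1 library). Immediate early genes had 3 in each direction of 42. Their higher count was 0 without Igf-1 2 and 1 without AA 1, Igf-1 1 or Igf-1 3, and their lower count 0 without AA 1, AA 3 or any 1 Igf-1 library. The list of p53 targets and apoptosis genes had 1 in each direction of 26, and matrix proteases had 1 in each direction of 51. Of these 4 calls, only that of xiap, lower in the first list, was kept without AA 1 or any 1 Igf-1 library. The fibroblast markers prrx1b and fap were lower, 2 of 12, but 0 of 12 without AA 1 or any 1 Igf-1 library and 1 of 12 without AA 3 or CTR 1. The 13 neural and 5 adipocyte markers tested gave no call.

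Some copies of a gene differed in their calls. Pairs of genes with related symbols were counted, and these include distinct genes such as aurka and aurkb. Of 1783 pairs, 287 had 1 member past the adjusted p and the other not. Another 27 had both members past it: 12 pairs both higher, 13 both lower and 2 in opposite directions. Of all genes tested, 8.37% passed the adjusted p. The counts for pairs of unrelated genes were not determined, so these counts show nothing particular to copies. The heme oxygenases were 1 of the opposite pairs: hmox1a (ENSSAUG00010025859) had 745, 963 and 450 in AA cells and 41.0, 136 and 106 in Igf-1 cells, whereas HMOX1 (ENSSAUG00010003067) had 181, 165 and 174 in AA cells and 760, 747 and 759 in Igf-1 cells. In CTR cells hmox1a had 74.0, 71.6 and 108 and HMOX1 754, 481 and 749. Ppp1r27b and PPP1R27, phosphatase regulators, were the other pair, at 2.11 and -1.41. The RNA helicase ddx5 (ENSSAUG00010003435) was higher by 1.17, while a second gene with the symbol DDX5 (ENSSAUG00010025034) had 0.16 and did not pass. Their relative DDX17 was lower by -1.74, with 1011, 1013 and 936 in AA cells and 3159, 3162 and 3555 in Igf-1 cells.

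Of 401 lncRNAs tested, 2 were higher (0.499%) and 6 lower (1.5%) past both thresholds. ENSSAUG00010015941 had 484, 507 and 504 in AA cells, 1443, 1397 and 1515 in Igf-1 cells and 1490, 1570 and 1444 in CTR cells (log2 fold change -1.54, SE 0.14, adjusted p = 0.000579 in edgeR's quasi-likelihood test). ENSSAUG00010016143 had 42.5, 91.0 and 36.4 in AA cells, 256, 370 and 272 in Igf-1 cells and 833, 714 and 1283 in CTR cells. The Igf-1 range overlapped that of CTR cells in ENSSAUG00010015941 and lay between AA and CTR cells in ENSSAUG00010016143. ENSSAUG00010004711 was higher, with 82.6, 133 and 127 in AA cells and 17.5, 31.5 and 27.0 in Igf-1 cells, but lost its call without AA 2, AA 3 or any 1 Igf-1 library.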

How the data were processed

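Total RNA was isolated with Trizol and sequenced after a stranded mRNA preparation. Whether counting used strand is not given in the sources used here, so overlapping, antisense and near-identical genes are uncertain. According to the methods, the authors trimmed reads, mapped them with HISAT2 to the Ensembl sea bream genome (build not named) and estimated expression with StringTie. The authors deposited estimated counts for all genes, which equal FPKM times gene length times 1 factor per library and are not scaled to library size. They were used rounded to whole numbers. The deposited FPKM (the authors' fragments scaled to gene length and library size) served for levels between genes and for a limma alternative on log2(FPKM + 0.1) in genes over 0.1 in at least 3 libraries. The deposited fold ratio, log2 and p-value columns hold the authors' comparisons and were not used.

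Genes were filtered with filterByExpr, scaled with TMM and fitted over all 9 libraries (edgeR 4.0.16, R 4.3.3) without a replicate block. The test was the quasi-likelihood F test of AA over Igf-1, two-sided, with Benjamini-Hochberg adjustment over 17687 genes. An exact permutation test of 3 against 3 libraries was not used because it cannot pass 0.05. Alternatives were RLE size factors, DESeq2 1.42.0, no filter, a fit of the 6 libraries, a replicate block, no fold threshold, counts divided by 4, FPKM with limma 3.58.1, and leaving out each library. Scripts were tested on simulated data. Counting intervals and floors cover counting error only.

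Genes were named by a rule with several parts. The first part took the 15 largest fold changes and 8 smallest adjusted p per direction. It drew on genes past both thresholds with a symbol, a mean of at least 50 normalized counts in the higher group and no overlap. The 3 smallest adjusted p in each of 45 lists and the 9 genes the study measured by qPCR were named whether or not they met these conditions. Up to 4 lncRNAs per direction were named if they passed with a mean of at least 50 normalized counts. Other genes named were list members or were chosen after their values were seen. The members and lists were chosen with earlier results of these data known. A few genes are not reported here.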

Additional observations from a re-analysis of the deposited data

How the results depend on the processing

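The number of genes higher and lower in AA cells was 430 and 335. It was 474 and 286 with RLE size factors, 617 and 388 with DESeq2, 428 and 329 without the filter, 500 and 322 in the fit of the 6 libraries, 493 and 351 with counts divided by 4, 541 and 272 on FPKM, and 760 and 720 without the fold threshold. Leaving out 1 library gave 256 to 554 higher and 181 to 338 lower. With the replicate number as a block the counts were 306 and 241, 539 of them also called without it. The numbers share no stated culture, so the pairing was not used. The correlations of same-numbered AA and Igf-1 libraries were 0.11, 0.01 and -0.19, and those of other-numbered ones ran from -0.27 to 0.26. With 3 libraries per group these values cannot decide whether cultures were shared. Of 108 named genes that passed, 74 kept their call in all 16 settings, 15 lost it in 1 to 3 and 19 in 4 or more. The ACTA1 gene that did not pass (ENSSAUG00010001996, -0.03) changed sign to 0.016 with RLE and with DESeq2, and ranged over -0.25 to 0.20 when 1 library was left out, positive without AA 3, Igf-1 3 or CTR 3. With 3 libraries per group and about 4 counts per sequenced pair, levels of genes with few counts are imprecise, and the cause of the dependence on single libraries was not tested.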

Other observations

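Nucleoside and monocarboxylate carriers, chosen after their values were seen, were among the slc genes higher in AA cells. The nucleoside carrier slc29a1a had 1559, 1243 and 2070 normalized counts in AA cells and 653, 584 and 336 in Igf-1 cells, and slc16a9a had 1525, 2015 and 2204 in AA cells and 538, 537 and 439 in Igf-1 cells. The inositol carrier slc5a3b had 926, 776 and 1393 in AA cells, 3062, 3101 and 3398 in Igf-1 cells and 4685, 6796 and 3656 in CTR cells. The zinc carrier slc30a8 had 28.8, 35.2 and 31.9 in AA cells, 191, 190 and 280 in Igf-1 cells and 382, 361 and 427 in CTR cells. The vitamin C carrier slc23a1 and the phosphate carrier slc20a1a had 0 in every AA library. In Igf-1 cells slc23a1 had 10.5, 8.35 and 20.2 and slc20a1a 32.3, 45.5 and 3.85. These values stood for about 10 and 22 sequenced pairs over the group. The 2 genes were at least 3.31-fold and 7.09-fold lower in AA than in Igf-1 cells at the floor of 12 counts over the group. The lower ends of the counting intervals were 2.12 and 5.18.

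Some genes of RNA handling were also chosen after their values were seen. The splicing factor SRSF3 (ENSSAUG00010001257) had 5306, 5610 and 4191 in AA cells, 2038, 1945 and 1741 in Igf-1 cells and 1613, 1316 and 2072 in CTR cells, while a second SRSF3 gene had 189, 157 and 220 in AA cells and 142, 151 and 137 in Igf-1 cells and did not pass. The stress granule protein g3bp1 had 17067, 9040 and 15465 in AA cells and 5311, 5488 and 5079 in Igf-1 cells. Among growth and patterning genes lower in AA cells, the receptor kinase mertka had 119, 128 and 133 in AA cells and 416, 412 and 503 in Igf-1 cells, and msx2b, a homeobox factor, had 170, 132 and 119 in AA cells, 393, 462 and 560 in Igf-1 cells and 705, 475 and 920 in CTR cells.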
